A study of Mus musculus with 12 samples.

Results

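The 9 genes described here encode sensors of nucleic acid inside the cell, the adaptor that relays their signal, and the transcription factors that switch on interferon and the genes it induces. They were taken from the deposited table by symbol (Ifih1, Ddx58, Dhx58, Zbp1, Mavs, Irf3, Irf7, Irf9 and Stat2), 9 of 55487 genes, and all 9 were among the 17890 genes that passed the filter on low counts and were tested. Whole kidneys came from male mice with X-linked Alport syndrome, a hereditary disease of the collagen network of the glomerular basement membrane, on the B6 background and 30 weeks old. There were 6 libraries from mice fed a diet with 500 ppm of fisetin, a plant flavonol, and 6 from mice fed a control diet, and each of 2 batches named in the labels held 3 libraries of each diet. All 12 titles name Col4a5, the X-linked collagen chain gene. The genotype field reads HET in all of them although males carry a single X chromosome, and the allele is not given in the sources used here. No kidney without the disease was analysed here, and since nothing in the labels states that the libraries are separate animals, p-values measure the spread between libraries, which may be technical.

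Cells recognise viral RNA, and self RNA or DNA in the wrong place, through such sensors. MDA5 (Ifih1) and RIG-I (Ddx58) bind double-stranded RNA and signal through MAVS on the mitochondrial surface, which leads to phosphorylation of IRF3 and IRF7 and to transcription of type I interferon. Secreted interferon then acts through its receptor on a complex that holds STAT2 and IRF9, which raises many of the sensors in turn. IRF3 and MAVS are made constitutively in most cells and act mainly through protein modification, which message levels do not measure.

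Total counts per library were 16310214 to 24451821 with fisetin (n = 6) and 18638748 to 22396857 with the control diet (n = 6). Kidney epithelial markers were high in every library (Umod had 26984 to 64693 counts and Slc34a1 27934 to 86903). The summed level of 17 macrophage markers was 693 to 1630 CPM with fisetin (median 1370) and 752 to 1290 CPM with the control diet (median 962), where CPM is the count scaled to a common library size. That of 20 lymphocyte markers was 46.1 to 259 CPM with fisetin (median 117) and 42.8 to 163 CPM with the control diet (median 57.2), and no listed macrophage or lymphocyte marker was at 0 in every library. An immune score, the mean of the 2 lists' mean log2 CPM, was 3.97 ± 0.62 with fisetin and 3.37 ± 0.45 with the control diet (6 libraries each, ± SD), a difference of 0.60 (exact permutation test within batches, two-sided, p = 0.09, where the smallest possible is 0.005; adjusted p = 0.149 over 8 marker scores). The score of 11 kidney epithelial markers was 8.63 ± 0.47 with fisetin and 9.04 ± 0.27 with the control diet (difference -0.41, exact permutation p = 0.085, adjusted p = 0.149), and that of 6 plasmacytoid dendritic cell markers, cells known for interferon production, was 2.30 ± 0.34 with fisetin and 1.89 ± 0.26 with the control diet (difference 0.41, exact permutation p = 0.055, adjusted p = 0.149). Log2 fold changes were negative for 11 of 11 epithelial and positive for 6 of 6 plasmacytoid dendritic markers, where 50.2% of all genes were positive. Other lists had like counts. Macrophage (16 of 17), lymphocyte (18 of 18), proliferation (5 of 5) and neutrophil (2 of 2) markers were positive, and endothelial markers negative (8 of 9). The part of epithelial and plasmacytoid dendritic cells in the results was not tested. Libraries within a diet differed most at its ends: fisetin 6 had the lowest immune score of its diet (2.93, against 3.75 to 4.67 in the other fisetin libraries) and control 1 the highest of its own (4.22, against 3.07 to 3.47 in the other control libraries). For 8 of the 9 genes fisetin 6 was the lowest fisetin library, and for 8 of the 9 control 1 was the highest control library. In whole tissue, more cells of a type and more RNA per cell cannot be told apart.

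Among themselves the genes spanned more than an order of magnitude in level. On the authors' TPM scale, which corrects for transcript length, Irf3 stood highest with a median of 35.5 TPM over the 12 libraries (range 26.6 to 41.0), and it was above every other gene of the set in 12 of 12 libraries. Mavs (median 18.4 TPM), Ddx58 (15.0) and Stat2 (13.8) followed. Their neighbours were not fully separated, since Mavs exceeded Ddx58 in 10 of 12 libraries and Ddx58 exceeded Stat2 in 10 of 12. Irf9 (12.1 TPM) lay below Stat2 in 12 of 12 libraries and above Irf7 (9.94 TPM) in 8 of 12. Ifih1 (6.56 TPM) exceeded Zbp1 (5.54 TPM) in 8 of 12. Dhx58 was lowest in 12 of 12 libraries, at 2.41 TPM (range 1.79 to 3.62). The top of this order holds on the TPM scale only. Mean CPM over the 12 libraries was higher for Mavs (72.7) and Ddx58 (62.8) than for Irf3 (44.8), and lowest for Dhx58 (6.12). The annotated exons of Mavs and Irf3 cover similar lengths (3345 and 3442 bases). The lengths behind the TPM values could not be checked, and whether they set the rank of Irf3 was not tested. The 7SL RNA gene Rn7s1 took 20.17% to 26.55% of all TPM, most in control 1, with fisetin 6 next (24.6%). In control 1 TPM was also low beside CPM (Ifih1 at 5.2 TPM and 38.7 CPM, against 6.38 TPM and 31.9 CPM in control 2). How much of this gap came from Rn7s1 was not tested. The diets are therefore compared on the CPM scale, with TPM only as an alternative, while the order of genes within a library is untouched by this.

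**Figure D1:**
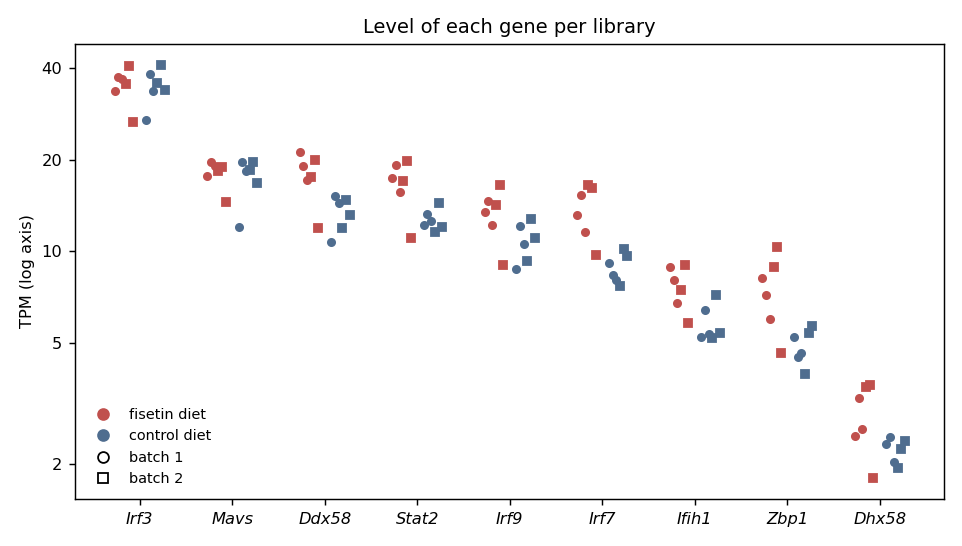
TPM of the 9 genes in each of the 12 libraries, on a log axis, ordered by median. Red marks fisetin and blue control libraries, circles batch 1 and squares batch 2. Irf3 lies between 26.6 and 41.02 TPM and Dhx58 between 1.79 and 3.62 TPM.

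The promoters available for these genes differ in a feature tied to their regulation. The complex that holds STAT2 and IRF9, and the IRF proteins, bind direct repeats of GAAA, and windows from 250 bases before to 50 bases after the start site (RefSeq, GRCm38.p6) were searched on both strands for GAAA repeated after any 2 bases and for the closer spacing GAAANGAAA. Windows were found for 7 of the 9 genes (8 windows, the extra window being of Irf9) and for neither Dhx58 nor Zbp1. Members are counted by gene and the background by window. The wider spacing was present in 3 of the 7 (Ifih1, Ddx58 and Stat2), against 3.44% of 32851 windows of the same length. GAAANGAAA was present in 2 of the 7 (Ddx58 and Stat2), against 3.17% of the same windows. The STAT dimer motif TTCNNNGAA was present in none of the 7 and in 8.3% of all windows. A match is a run of letters, not a shown binding site, and the lack of one in Irf3, Irf7, Irf9 and Mavs says only that these letters are not in this window. The 3 windows with a match are shown, with Mavs beside them as a window with none, each read 5′ to 3′ on the gene's strand and with capitals marking the matched letters.
Ifih1, chr2:62646206-62646505, minus strand: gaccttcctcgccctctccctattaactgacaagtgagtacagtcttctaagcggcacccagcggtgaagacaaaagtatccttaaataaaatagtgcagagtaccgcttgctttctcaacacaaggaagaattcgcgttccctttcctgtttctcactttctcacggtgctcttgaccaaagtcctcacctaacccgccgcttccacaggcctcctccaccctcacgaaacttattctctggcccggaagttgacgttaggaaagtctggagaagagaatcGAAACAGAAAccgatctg
Ddx58, chr4:40239776-40240075, minus strand: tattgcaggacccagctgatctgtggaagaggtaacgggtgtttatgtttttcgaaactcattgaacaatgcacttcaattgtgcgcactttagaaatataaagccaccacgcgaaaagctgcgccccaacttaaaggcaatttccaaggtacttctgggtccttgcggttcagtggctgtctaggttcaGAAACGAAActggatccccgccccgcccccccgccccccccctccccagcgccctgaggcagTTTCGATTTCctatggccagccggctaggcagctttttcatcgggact
Stat2, chr10:128270248-128270547, plus strand: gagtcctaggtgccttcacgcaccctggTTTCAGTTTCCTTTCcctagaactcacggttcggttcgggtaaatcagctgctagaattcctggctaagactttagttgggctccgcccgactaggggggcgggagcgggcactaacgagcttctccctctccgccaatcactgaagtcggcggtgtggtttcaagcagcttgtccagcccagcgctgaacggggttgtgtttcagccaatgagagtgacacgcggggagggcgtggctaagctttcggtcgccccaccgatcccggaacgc
Mavs, chr2:131233813-131234112, plus strand: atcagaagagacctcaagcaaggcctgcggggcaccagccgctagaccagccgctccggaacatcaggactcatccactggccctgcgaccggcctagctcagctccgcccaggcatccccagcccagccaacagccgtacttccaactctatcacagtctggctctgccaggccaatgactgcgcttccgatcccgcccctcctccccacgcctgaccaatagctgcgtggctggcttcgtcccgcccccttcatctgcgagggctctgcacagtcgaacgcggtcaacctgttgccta
The match in Ifih1 lies from 33 to 42 bases after the start site. Ddx58 holds one on the opposite strand from 3 to 12 bases after it, and the closer repeat from -60 to -52. In Stat2 both spacings share letters, the wider at -222 to -213 and the closer at -216 to -208, both on the opposite strand.

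The comparison of the diets asked how these messages differed between fisetin-fed and control-fed Alport kidneys. Ifih1, Ddx58, Dhx58, Zbp1, Irf7, Irf9 and Stat2 had higher means with fisetin, between 1.14-fold and 1.48-fold, whereas the constitutive pair Mavs and Irf3 lay close to the control level (0.979-fold and 0.953-fold). The 9 genes were chosen by this same contrast, with their fold changes of fisetin over control diet known, so the differences are a description and nothing is read from their number. A positive log2 fold change was seen in 7 of 9, against 50.2% of all genes. None of the 9 passed over all genes by the quasi-likelihood test of edgeR (Benjamini-Hochberg adjusted p = 0.223 to 0.775), nor did any other gene (0% of 17890). At an unadjusted p under 0.05 there were 7 of the 9, all higher, against 8.23% of all genes.

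MDA5, the product of Ifih1 (chromosome 2, 62595798 to 62646255, GRCm38, minus strand), detects long double-stranded RNA. Its message was lowest at 39, median 42 and highest at 47.8 CPM in fisetin kidneys, against 30.7, 32.2 and 38.7 CPM in control kidneys. Every fisetin library lay above every control library, although by a narrow margin, since fisetin 6 had 39 and control 1 38.7 CPM. Of all genes 0.47% were separated in this direction. The log2 fold change was 0.33 ± 0.07 (SE), a 1.26-fold difference.

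RIG-I, encoded by Ddx58 (chromosome 4, 40203773 to 40239828), detects short RNA with a free triphosphate end. It ran from 56.1 through a median of 72 to 72.7 CPM with fisetin, against 52.8, 55.7 and 63.7 CPM with the control diet. A group of 5 fisetin libraries lay above every control library, and fisetin 6 fell among the controls. The log2 fold change was 0.27 ± 0.07 (SE).

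Dhx58 (chromosome 11, 100694884 to 100704271) encodes LGP2, a relative of the other helicases without their signalling domains that modulates RNA recognition. With 93 to 197 counts per library it was the least deeply counted of the 9. It ran from 5.18 through 6.9 to 7.9 CPM with fisetin, against 4.66, 5.37 and 6.6 CPM with the control diet, so the groups overlapped. The log2 fold change was 0.33 ± 0.12 (SE). An antisense gene, Dhx58os, shares 4.309% of its exonic bases, and whether the counting used strand is not given in the sources used here.

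Zbp1 (chromosome 2, 173206612 to 173218923) encodes a sensor of left-handed nucleic acid that can trigger necroptosis, a lytic form of cell death. Relative to its mean it had the widest spread between fisetin libraries, with 7.41, 12.3 and 15.3 CPM as lowest, median and highest, against 6.73, 7.42 and 11 CPM with the control diet. Only 3 fisetin libraries exceeded every control library, and fisetin 6 stood at the level of the median control. Its log2 fold change of 0.56 ± 0.19 (SE) was the largest of the set and had the largest error.

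Mavs (chromosome 2, 131234063 to 131248025), the adaptor on which MDA5 and RIG-I converge, ran from 67.8 through 71.2 to 77.9 CPM with fisetin, against 67.6, 74.4 and 78.2 CPM with the control diet. The ranges nearly coincided, and the log2 fold change was -0.03 ± 0.05 (SE). Irf3 (chromosome 7, 44997648 to 45002848), the factor that MAVS signalling activates first, ran from 41.8 through 42.5 to 47.1 CPM with fisetin, against 42.8, 46.4 and 48.3 CPM with the control diet. Its log2 fold change was -0.07 ± 0.05 (SE). The groups overlapped in part: 3 fisetin libraries (41.8 to 42.2 CPM) lay below every control library and 3 control libraries (47.4 to 48.3 CPM) above every fisetin library. The sign of Mavs turned with scaling by total count (0.01), on log2(TPM + 1) (0.05) and in batch 1 alone (0.02). That of Irf3 turned only on log2(TPM + 1) (0.01). On the TPM scale Irf3 was low in both fisetin 6 (26.6 TPM) and control 1 (27.04 TPM), and why the sign turned was not tested.

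IRF7, which amplifies interferon production once it has been induced, is encoded on chromosome 7 (141262706 to 141266481). Irf7 ran from 28.6 through 32.7 to 39.3 CPM with fisetin, against 19.6, 21.8 and 31.8 CPM with the control diet. All control libraries but control 1 lay below every fisetin library. The log2 fold change was 0.51 ± 0.13 (SE), a 1.42-fold difference. Within a library, log2 of Irf7 over Irf3, which depends on no scaling between libraries beyond a small prior count, was -0.69 to -0.23 with fisetin (median -0.38) and -1.27 to -0.60 with the control diet (median -1.01). This pair of genes was chosen after the values were seen.

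Irf9 and Stat2 encode members of the complex that reads out interferon receptor signalling. Irf9 (chromosome 14, 55603571 to 55610030) ran from 32.6 through 38.6 to 45 CPM with fisetin, against 30.6, 34.4 and 38.2 CPM with the control diet, with a log2 fold change of 0.19 ± 0.08 (SE). Stat2 (chromosome 10, 128270559 to 128292849) ran from 40.7 through 47.6 to 54.1 CPM with fisetin, against 33.7, 38.5 and 50 CPM with the control diet, with a log2 fold change of 0.29 ± 0.10 (SE). Both overlapped between diets. For Stat2 only control 1, at 50 CPM, reached into the fisetin range, whereas for Irf9 3 fisetin libraries exceeded every control. Irf3, Irf7 and Irf9 share 1.192% to 2.557% of their exonic bases with a neighbouring gene.

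**Figure D2:**
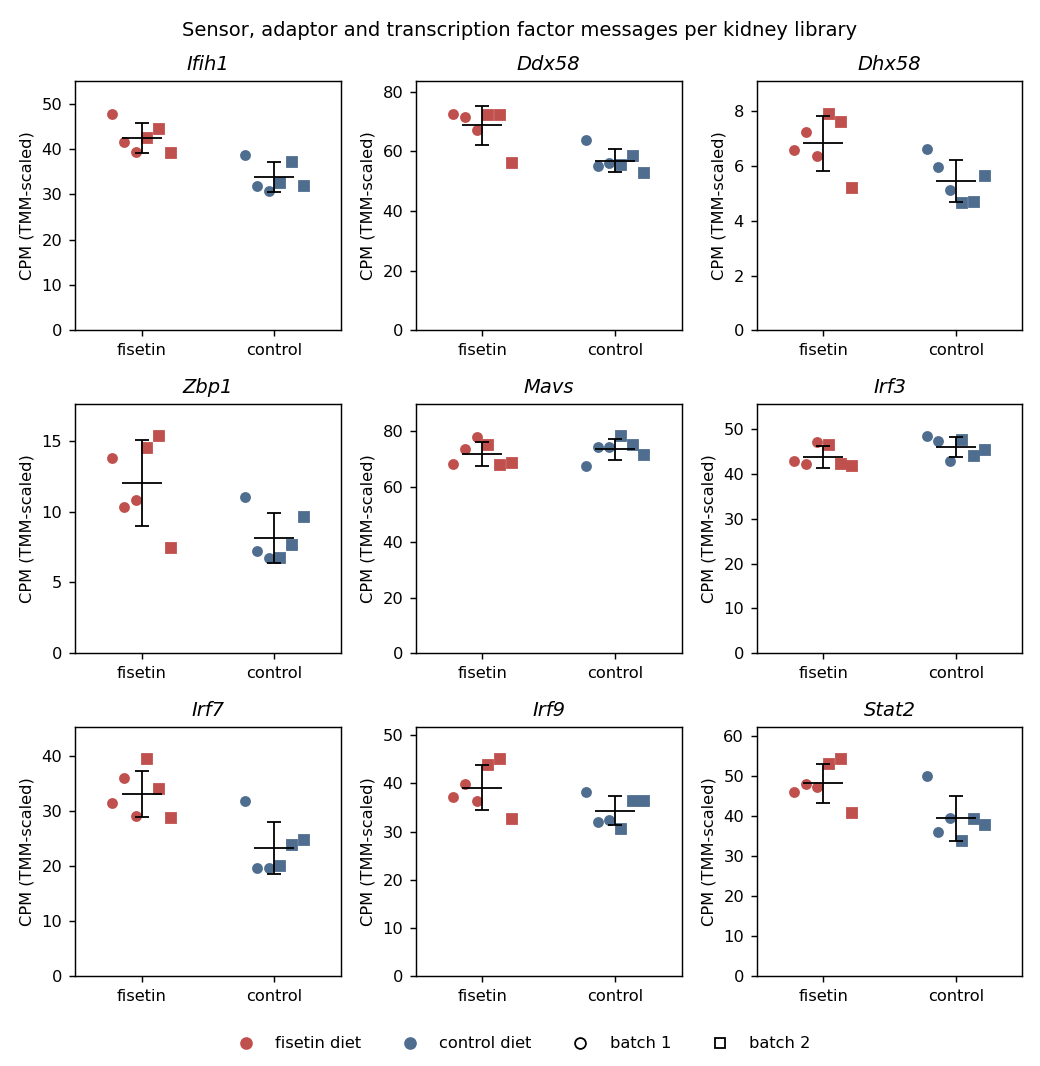
CPM of each gene in the 6 fisetin (left) and 6 control libraries (right), with the mean and SD as bars, circles for batch 1 and squares for batch 2. Ifih1 libraries do not overlap (39 to 47.8 against 30.7 to 38.7 CPM), while the ranges of Mavs and Irf3 overlap (41.8 to 47.1 against 42.8 to 48.3 CPM for Irf3).

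Tool and library mattered for single calls. DESeq2's Wald test called 3 of the 9 (Ifih1, adjusted p = 0.0182; Irf7, adjusted p = 0.0354; Ddx58, adjusted p = 0.0456), all higher, against 0.503% of all genes. The limma-voom fit with quality weights called the 7 genes with higher means, against 6.8% of all genes. Without fisetin 6, edgeR called Ddx58 alone of the 9 (log2 fold change 0.32, adjusted p = 0.0327). It called 70 of all genes in that fit, 44 of them higher, against 0 with all libraries. The difference within batch 1 was 0.35 for Ifih1, 0.48 for Irf7 and 0.50 for Zbp1, and within batch 2 it was 0.31, 0.57 and 0.57, in log2 CPM. Within batch 1 every fisetin library lay above every control library for 2 of the 9 (Ifih1 and Ddx58; 7.22% of all genes), within batch 2 for 3 (Ifih1, Irf7 and Stat2; 5.74%), and in both for Ifih1 (0.917%). Dhx58 (0.19 and 0.44) and Stat2 (0.18 and 0.41) had values further apart, but 0 of 9 passed for an interaction of diet with batch in edgeR's test (0% of all genes; 0 of 9 and 2.1% at an unadjusted p under 0.05).

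Macrophages and lymphocytes express many of these genes, and the contrast was refitted with the immune score as a further term. The median log2 fold change of the 9 genes was 0.29 without the score and 0.15 with it, beside 0.00 for all genes in both fits. The estimates differed in how much was left, and differences between genes were not tested. Ifih1 stood at 0.23 ± 0.07 (SE), 70.0% of its value without the score, and Irf7 at 0.34 ± 0.11 (SE), 66.3%. Ddx58 stood at 0.16 ± 0.06 (58.4%). Stat2 (0.14 ± 0.07) and Dhx58 (0.15 ± 0.12) were left with 46.8% and 45.7%. Zbp1 was left with 30.6% (0.17 ± 0.10) and Irf9 with 23.1% (0.04 ± 0.07). Mavs (0.01 ± 0.06) and Irf3 (-0.08 ± 0.06) stayed near 0. No gene of the 9 passed in this fit by edgeR (adjusted p = 0.634 to 0.986; 0% of all genes), with 3 of 9 higher at an unadjusted p under 0.05 (3.5% of all genes), and none by DESeq2 or limma-voom. The macrophage score alone, the lymphocyte score alone or both as separate terms left Ifih1 at 0.23 to 0.24 and Irf7 at 0.34 to 0.36. Immune score and diet are related in these libraries, so their parts in the difference cannot be told apart.

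**Figure D3:**
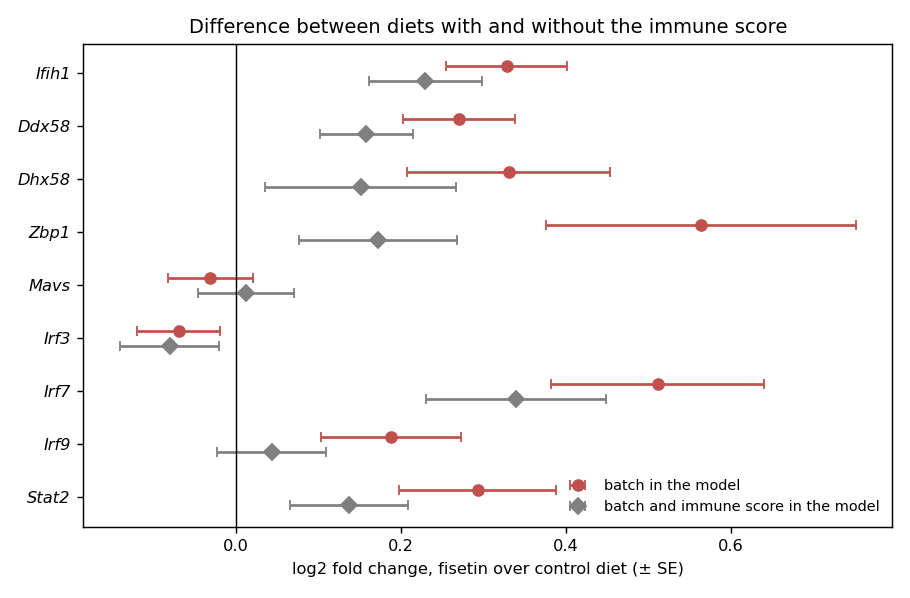
Log2 fold change of fisetin over control diet for each gene, with its SE, from the fit with batch (red circles) and the fit with batch and immune score (grey diamonds). Zbp1 moves from 0.56 to 0.17 between the fits, Ifih1 from 0.33 to 0.23.

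The same fit gives how far each gene followed the immune score among libraries of the same diet and batch. The genes were chosen with this fit known, so the slopes are a description. Zbp1 had the steepest slope, 0.63 ± 0.09 log2 per unit of score (SE). Irf7 (0.31 ± 0.10), Dhx58 (0.29 ± 0.10), Stat2 (0.26 ± 0.06) and Irf9 (0.24 ± 0.06) followed, then Ddx58 (0.18 ± 0.05) and Ifih1 (0.16 ± 0.06). Mavs (-0.07 ± 0.05) and Irf3 (0.02 ± 0.05) lay near 0. By edgeR's test of this term 5 of the 9 passed upward (Zbp1, Stat2, Irf9, Ddx58 and Irf7), beside 10.4% of all genes in that direction and 20.9% in either, and nothing is read from that count.

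The slopes and the count depended on the libraries at the ends of the score. The count of 5 was 1 without fisetin 6, 2 without fisetin 5 and 2 without control 1, and 4 to 6 without any other single library. With each library left out in turn, slopes kept their sign for the 7 genes with higher means in fisetin kidneys. They ran from 0.57 to 0.70 for Zbp1 and from 0.12 (without fisetin 6) to 0.21 for Ddx58. The slope of Irf7 ran from 0.18 without control 1 to 0.44 without fisetin 5. Of the 5 genes that passed, Zbp1 did so in 12 of these 12 fits by edgeR and Irf9 in 10. Ddx58 and Stat2 passed in 9 each, and Irf7 in only 4 (edgeR adjusted p = 0.0275 to 0.239).

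**Figure D4:**
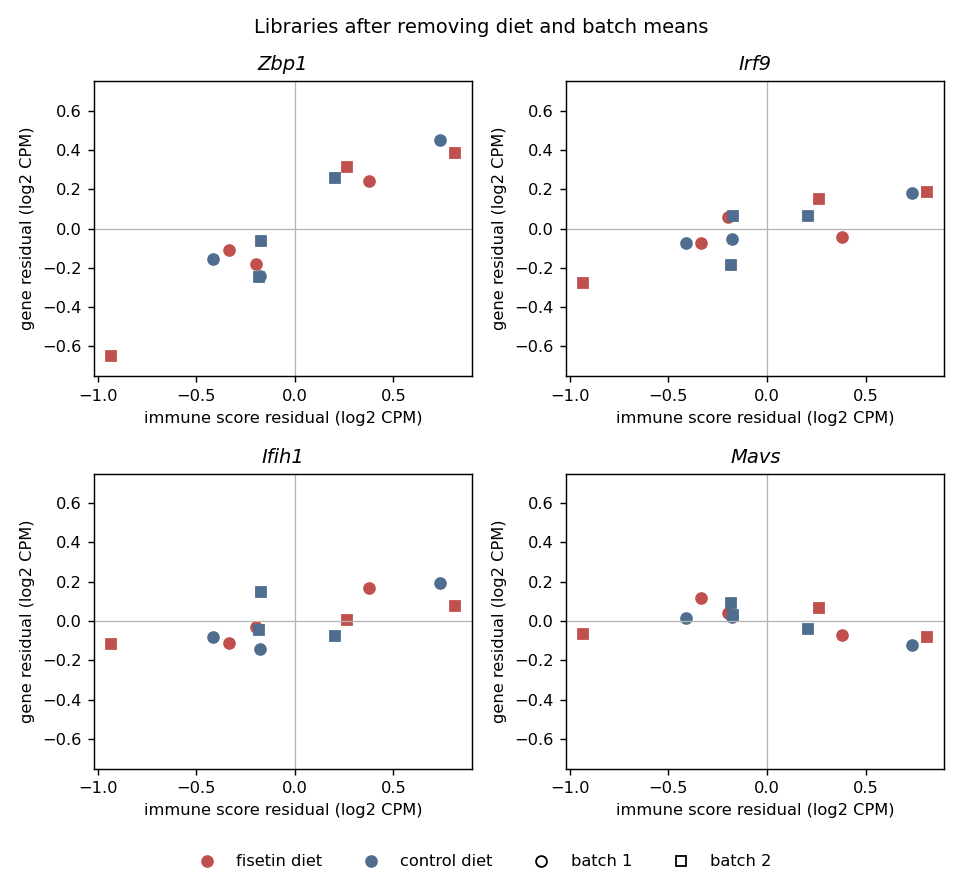
Residual log2 CPM of Zbp1, Irf9, Ifih1 and Mavs against the residual immune score in 12 libraries, both after removing diet and batch means (red fisetin, blue control). Zbp1 climbs steeply with the score and Mavs does not; the point at the far left is fisetin 6.

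Some of the genes varied together from library to library. After diet and batch means were removed, the 36 pairs of genes were compared over 12 libraries by an exact permutation test that exchanges libraries only within a diet and batch (1296 arrangements, two-sided). Irf9 and Stat2, partners in one complex, had the highest correlation (Pearson r = 0.90, p = 0.00386, adjusted p = 0.0463 over 36 pairs; Spearman rho = 0.92, p = 0.0054, adjusted p = 0.088), with r = 0.89 without the 2 libraries farthest from the median of Irf9. The helicase genes Ifih1 and Ddx58 (r = 0.76, adjusted p = 0.0463; rho = 0.84, adjusted p = 0.088) and the pair Dhx58 and Irf7 (r = 0.73, adjusted p = 0.0463; rho = 0.75, adjusted p = 0.088) passed likewise by Pearson's r in this permutation test, and no pair passed by Spearman's rho. Without the 2 farthest libraries these stood at r = 0.76 and r = 0.66. Over the 21 pairs that exclude Mavs and Irf3, r ran from 0.35 to 0.90 with a median of 0.77. Over the 15 pairs with Mavs or Irf3 it ran from -0.49 to 0.36 with a median of 0.03. That split was made after the values were seen, and all pairs share the same libraries and scaling. Pairs of genes outside the set were not compared, so these correlations cannot be called particular to it. The immune score is common to the first group too, with r of 0.68 to 0.95 between it and the 7 genes over the same 12 residuals.

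**Figure D5:**
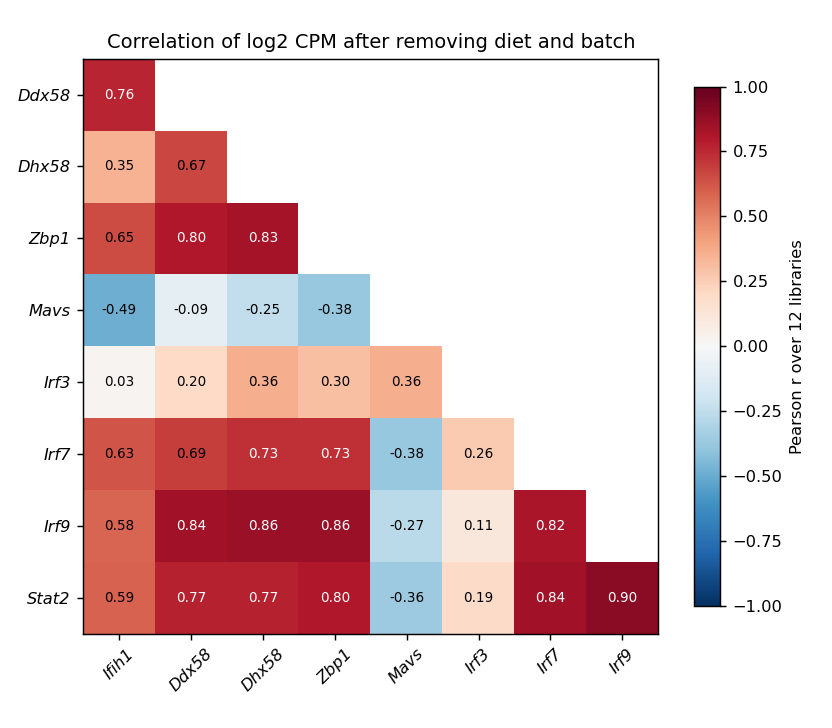
Pearson r of log2 CPM for every pair of the 9 genes over 12 libraries, after removing diet and batch means. Rows and columns of Mavs and Irf3 are pale or blue (-0.49 to 0.36), and the remaining pairs are red (0.35 to 0.90).

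Other genes of the pathway were taken from lists. These lists were chosen with earlier results of these data known, so their counts are a description and nothing is read from them. Interferon messages themselves were nearly absent. Of 16 interferon ligand genes, 10 had no count in any library, Ifnb1 among them, where a count of 0 allows up to 3 counts, or 0.123 to 0.184 CPM depending on the library, for counting error only. Ifng, the type II interferon of lymphocytes, was the most counted with 44 counts over 12 libraries and 9 at most in one, and none of the ligands passed the filter. Among 9 receptor chains and Janus kinases, 8 had positive log2 fold changes with fisetin (median 0.12), against 50.2% of all genes. With the immune score in the model 5 of 9 were positive, with a median of 0.00. None of these chains and kinases passed by edgeR (0% of all genes) or DESeq2 (0.503% of all genes higher). Ifnar1, the type I receptor chain, averaged 104 ± 12.5 CPM with fisetin and 96.2 ± 7.06 CPM with the control diet (± SD over 6 libraries each), and the smallest p were those of Jak2 (log2 fold change 0.19 ± 0.08, SE) and the type II receptor chain Ifngr1 (0.22 ± 0.11).

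All 15 other sensors of nucleic acid had positive log2 fold changes, against 50.2% of all genes, in a list chosen with results known. Their median was 0.37, and 0.12 with the immune score in the model. None passed by edgeR, DESeq2 called Ifi204 (adjusted p = 0.00346; 0.503% of all genes higher), and 9 were higher at an unadjusted p under 0.05 (8.23% of all genes). Tlr7, an endosomal sensor of single-stranded RNA, averaged 12.5 ± 3.11 CPM with fisetin and 8.04 ± 2.00 CPM with the control diet (log2 fold change 0.64 ± 0.19, SE), and Ifi204, a member of the p200 family, 16.7 ± 3.17 CPM with fisetin and 10.8 ± 1.29 CPM with the control diet (0.62 ± 0.13). Values for Ifi204 are uncertain, since the family holds near-identical genes. The DNA sensor cGAS (Cgas, 0.37 ± 0.15), its partner STING (Sting1, 0.26 ± 0.18) and Tlr3 (0.14 ± 0.07) had smaller ones, and Sting1 was at -0.07 ± 0.15 with the immune score.

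Of 19 adaptors and kinases, 15 had positive log2 fold changes with a median of 0.05, against 50.2% of all genes, and 0 passed by edgeR or DESeq2. Tbk1, the kinase that phosphorylates IRF3, averaged 31.2 ± 2.00 CPM with fisetin and 30.1 ± 2.39 CPM with the control diet (0.05 ± 0.06), and the smallest p belonged to Tank (0.30 ± 0.13) and Ikbkg (0.14 ± 0.06). Of 12 other transcription factors and partners, 11 were positive with a median of 0.22, against 50.2% of all genes. Parp14 (0.43 ± 0.09) and Elf1 (0.19 ± 0.06) had the smallest p, and DESeq2 called Parp14 (adjusted p = 0.0116; 0.503% of all genes higher). Of 22 inhibitors and enzymes that clear or modify nucleic acid, 15 were positive with a median of 0.08, against 50.2% of all genes. They were led by Usp18, which shuts off the type I receptor (0.49 ± 0.14), and the exonuclease gene Trex1 (0.36 ± 0.12). With the immune score in the model the medians of the adaptor, transcription factor and inhibitor lists were 0.01, 0.01 and 0.00. Among 5 partners of ZBP1 in necroptosis, Casp8 had the smallest p (0.14 ± 0.04), and the kinase gene Ripk3 (0.23 ± 0.13) and the executioner gene Mlkl (0.34 ± 0.21) were counted at 3 to 4 CPM on average. None of these lists held a gene called by edgeR.

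Many of these genes rose with the immune score too: 9 of 12 other transcription factors, 8 of 15 sensors, 10 of 22 inhibitors and clearance enzymes, 5 of 9 receptors and kinases, 5 of 19 adaptors and 1 of 5 necroptosis partners passed upward by edgeR, against 10.4% of all genes. Mlkl had a slope of 0.62 ± 0.13 log2 per unit (adjusted p = 0.00748), beside 0.08 ± 0.06 for Tbk1 (adjusted p = 0.384). The counts for these lists were not repeated with a library left out. Over all genes, 3731 passed for this term by edgeR, and 942 without fisetin 6.

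Between batch 2 and batch 1, 0 of the 9 genes passed by edgeR (0% of all genes), 0 of 9 had an unadjusted p under 0.05 (3.38% of all genes), and the log2 fold changes ran from -0.10 ± 0.12 for Dhx58 to 0.05 ± 0.08 for Irf9 (SE). DESeq2 and limma-voom called 0 genes for batch as well.

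By the rule fixed for likeness, the 8 of 13280 genes whose residual log2 CPM over 12 libraries was most like the mean of the 9 genes were Cd72 (r = 0.989), Rnf213 (0.983), H2bc3 (0.979), Hist1h4m (0.974), Pafah1b3 (0.973), Tmem165 (0.973), H3c2 (0.969) and H3c3 (0.968). Cd72 encodes a surface receptor of B cells, and Rnf213 a large ubiquitin ligase. Their differences between diets varied, from 0.03 ± 0.05 for Tmem165 to 0.29 ± 0.07 for Rnf213 and 0.43 ± 0.21 for Hist1h4m (log2 fold change ± SE). H2bc3, Hist1h4m, H3c2 and H3c3 encode replication histones, whose messages mostly lack a poly(A) tail and whose genes are near-identical copies, which makes these values uncertain.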

How the data were processed

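Messenger RNA from kidney was sequenced in 12 libraries (6 fisetin, 6 control, with diet from the titles and batch from the labels). Per the submitters' processing notes fastp, STAR, featureCounts and DESeq2 were used with GRCm38 or mm10; the annotation release and how reads were assigned: not given in the sources used here. Per the file headers, each library has deposited columns of estimated counts, of TPM and of FPKM. The authors' estimated counts are not scaled for depth; 13.91% of deposited counts above 0 were not whole (tolerance 1e-06) and were rounded. TPM values, scaled by the authors to a fixed total, served for levels between genes, and the authors' FPKM values were not used further. The members and lists were chosen with earlier results of these data known.

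Genes passing filterByExpr by diet (minimum count 10), 17890 of 55487, were scaled by TMM and tested in R 4.3.3 with edgeR 4.0.16 (glmQLFit, robust; glmQLFTest, two-sided) with terms for batch and diet, with the immune score added, or with a diet by batch interaction. P-values were adjusted over all genes tested (Benjamini-Hochberg, threshold 0.05). SEs are the absolute log2 fold change over the root of F. The immune score is the mean of macrophage and lymphocyte marker means (log2 CPM, prior count 2; 17 and 18 markers past the filter). DESeq2 1.42.0 and limma 3.58.1 (voom with quality weights; log2(TPM + 1)) were alternatives, with adjusted p-values DESeq2 gave as NA (1750 genes) kept so. Pairs of genes and scores were tested in Python 3.11.15 and R by exact permutation. The steps were tested on simulated counts. Mean squared differences between libraries were 6.84 to 101 times counting noise in 66 pairs, so none looked like a copy. Coordinates come from GENCODE M21 (GRCm38), with 55227 identifiers matched, and promoters from RefSeq. Named genes beyond the 9 members are, per pathway list, the 2 with the smallest p, 10 fixed genes, and the 8 most alike by residual correlation among genes averaging 2 or more in log2 CPM. A gene that this rule names is not reported here. Intervals and limits cover counting error only.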

Additional observations from a re-analysis of the deposited data

Results flagged for a closer look

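Of the values within a diet, 3 stood apart from the other 5 libraries by a gap larger than Dixon's 95% limit for 6 samples. In the fisetin group Ddx58 was low in fisetin 6, with a gap of 0.684 of the range, at 56.1 CPM against 67.1 to 72.7 CPM in the other fisetin libraries. The endothelial marker score was high in fisetin 6, with a gap of 0.627, at 6.15 log2 CPM against 5.64 to 5.83 in the other fisetin libraries. In the control group the immune score was high in control 1, with a gap of 0.652, at 4.22 against 3.07 to 3.47 in the other control libraries. Of 36 groups tested, 3 were set apart, and chance alone sets apart about 1 in 20 groups.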

How the results depend on the processing

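No paired analysis was possible because the labels give no replicate numbers shared between the diets. The count of genes called for diet was 0 by edgeR, 154 by DESeq2, 2492 by limma-voom with quality weights and 1 in batch 1 alone, and 0 to 70 with one library left out (70 without fisetin 6, 1 without fisetin 4). With the immune score it was 0 by edgeR, 24 by DESeq2, 4 with no filter on low counts, 6 with the macrophage score alone and 4 with both scores as separate terms, and 0 to 2 with one library left out. The interaction count was 0 by edgeR and 1 by DESeq2. The count for the immune term was 3731, and 942 to 5159 with one library left out (942 without fisetin 6, 957 without fisetin 5), with 1 to 6 of the 9 members called. The immune score difference of 0.60 ranged from 0.41 without fisetin 5 to 0.84 without fisetin 6. The exact permutation test gave p = 0.025 without fisetin 6 and p = 0.04 without control 1. Without any other single library the exact permutation test gave p = 0.085 to 0.205, the highest without fisetin 5. The median log2 fold change of the members stayed between 0.19 and 0.37 over 21 alternatives, and the 7 genes with higher means kept their sign in each of them. Mavs changed sign in 3 and Irf3 in 1. Scaling by total count moved the median of all genes by 0.05. The cause of these shifts was not tested. The alternatives for the members' immune term and for their median with the immune score (0.12 to 0.20) were chosen after seeing the data. With total count scaling 7 members passed for the immune term, among 4537 genes called (3097 higher). The main fit called 3731 genes, 1854 of them higher. Irf7 did not pass it with no filter on low counts (edgeR adjusted p = 0.0539), nor in most fits with a library left out.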
